A study of Danio rerio with 170 samples.

Results

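A set of 7 heart genes was measured in zebrafish embryos exposed to per- and polyfluoroalkyl substances (PFAS). They were the natriuretic peptide genes nppa and nppb, the ventricular myosin heavy chain gene vmhc, and the transcription factor genes TBX20, nkx2.5, gata4 and hand2. They were taken by symbol, upper and lower case alike, with vmhc and nkx2.5 in the first table reached through their RefSeq names, and all 7 of 7 were found among the 27904 genes of the table of 15 PFAS at 48 hours post fertilization (hpf) and among the 26992 genes of a time course of one of these PFAS, NB2. All embryos were of the Tropical 5D wildtype strain, entered exposure at 6 hpf and were kept in 1% DMSO, which the controls carried too. Each library came from RNA of whole embryos, pooled by 10 in the table of 15 PFAS and by 8 in the NB2 time course, so the heart was a small part of every sample. In such samples fewer heart cells and less RNA per heart cell cannot be told apart.

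The exposures in Exposure Round 1 were PFAS 1 (9-Chloro-perfluorononanoic acid, 100 µM), PFAS 3 (Potassium perfluorooctanesulfonate, 13.8 µM), PFAS 5 (Perfluoroheptanesulfonic acid, 100 µM), PFAS 6 (N-Ethylperfluorooctanesulfonamide, 100 µM), PFAS 7 at 39.7 µM (the diol 1-(Perfluorofluorooctyl)propane-2,3-diol), PFAS 8 at 53 µM (the glycol 1H,1H,11H,11H-Perfluorotetraethylene glycol), PFAS 9 (2,2,3,3-Tetrafluoropropyl acrylate, 62 µM), PFAS 10 (Perfluorooctanesulfonamide, FOSA, 8 µM), PFAS 11 (Perfluorohexanesulfonamide, FHxSA, 28 µM), PFAS 12 at 100 µM (the compound 3H-Perfluoro-2,2,4,4-tetrahydroxypentane) and PFAS 13 (a perfluorinated decanediol, 25 µM). Their 6 control libraries came from 6 collection days, 1 library a day. Exposure Round 2, collected on a single day, held PFAS 2 (NB2, Nafion byproduct 2, an ether sulfonic acid, 30 µM), PFAS 4 (Perfluoro-3,6,9-trioxatridecanoic acid, 50 µM), PFAS 14 (a fluorinated pentanediol diacrylate, 20 µM) and PFAS 15 (a fluorinated hexanediol diacrylate, 20 µM), with 4 control libraries. Every PFAS had 4 libraries except PFAS 5, which had 3 after the library the study set aside was left out. Replicates had been chosen by the study partly by how many embryos of the same exposure went on to show effects. The NB2 time course held NB2 at 73 µM and vehicle at 48, 72 and 96 hpf, with 4 columns per group at 48 hpf and 5 at the later ages.

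Natriuretic peptides are hormones that heart muscle releases into the blood when its wall is stretched. Their genes are active in the embryonic chambers and are widely used as markers of load on the heart. The transcription factors of the NK2, GATA, T-box and HAND families switch on the genes of heart muscle and help to shape the chambers, and myosin heavy chains are the motor proteins that make the muscle contract. In zebrafish vmhc marks the ventricle and myh6 the atrium, while hand2 also works in pharyngeal arches, fin buds and sympathetic neurons.

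The levels below are counts scaled to library size (CPM) with TMM factors, from 3′ end libraries in which a transcript gives reads from its end only, so CPM was not divided by gene length. Library totals ran between 14265378 and 30363275 reads. A gene was called changed where the quasi-likelihood F test of edgeR gave a Benjamini-Hochberg adjusted p under 0.05 over the 21928 genes tested, and all 7 genes passed the filter on low counts. Means are given ± SD, log2 fold changes (PFAS over the controls of its own round) ± SE. Pools of Round 1 were exposed on different days, at most 2 of a PFAS on the same one, while those of Round 2 and of the NB2 course are not said to come from separate clutches, so p-values there may measure technical spread.

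All 4 markers of heart muscle were detected in the whole-embryo RNA of the controls. In the Round 1 controls the light chain gene myl7 had a median of 16.6 CPM, cmlc1 13.5 CPM, tnnt2a 9.86 CPM and myh6 13.7 CPM. Over the 10 control libraries MYH7, the identifier taken for vmhc, averaged 24.1 CPM, nppa 18.2 CPM and HAND2 17.8 CPM without TMM scaling, above 86.1%, 82.8% and 82.5% of the genes in the table. The remaining 4 members were lower: nppb averaged 1.64 CPM, NKX2-5 1.18 CPM, TBX20 0.598 CPM and gata4 0.098 CPM.

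The ventricular myosin gene could not be tied to a single identifier. By the names of the reference tables vmhc is myh7 (GeneID 30616), and the only identifier named MYH7 in the table of 15 PFAS is ENSDARG00000079782, which stands for vmhc below. A second identifier, ENSDARG00000079564, carries the human-type name MYH6 and was more abundant (36.2 ± 4.27 CPM against 24.5 ± 2.75 CPM for MYH7 in the 6 Round 1 controls). In the reference annotation myh7 and its relative myh7l lie next to each other, and the tables at hand do not settle which identifier is which gene. Both are therefore given throughout under their identifiers' names, MYH7 and MYH6.

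Of the 15 PFAS, 4 changed at least 1 member, and the 9 calls fell on 4 of the 7 genes. PFAS 10 and PFAS 11 each raised nppa, nppb and MYH7. PFAS 8 raised MYH7, and PFAS 12 lowered MYH7 and raised HAND2. The share of all tested genes called was 14.1% for PFAS 10 and for PFAS 11, where 3 of 7 members were called, 14.2% for PFAS 12, where 2 of 7 were called, and 3.84% for PFAS 8, where 1 of 7 was called. By direction, genes called higher and lower made up 7.26% and 6.83% in PFAS 10, 6.58% and 7.52% in PFAS 11, 6.77% and 7.47% in PFAS 12, and 2.1% and 1.74% in PFAS 8. No member was called by edgeR for PFAS 7, 9 and 13, in which 0.944% (0.762% higher and 0.182% lower), 6.9% (3.06% higher and 3.84% lower) and 16.2% (7.63% higher and 8.52% lower) of all genes were. Among their 21 member tests 4 had an unadjusted p under 0.05, and DESeq2 called 2, MYH7 in PFAS 9 and HAND2 in PFAS 13. For PFAS 1, 2, 14 and 15 no gene of the table was called. The share was 0.041% for PFAS 3 (all higher), 0.00456% for PFAS 4 (all lower), 0.0547% for PFAS 5 (0.0502% higher and 0.00456% lower) and 0.105% for PFAS 6 (all higher). Among the 56 member tests of these 8 exposures edgeR and DESeq2 called 0, with 7 at an unadjusted p under 0.05 and 4 without a DESeq2 adjusted p. Over the 7 members the median log2 fold change of PFAS 10 was 0.41, that of PFAS 11 was 0.25, that of PFAS 8 was 0.29 and that of PFAS 12 was -0.26, while the median over all genes lay between -0.02 and -0.01 in these 4 exposures.

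**Figure D1:**
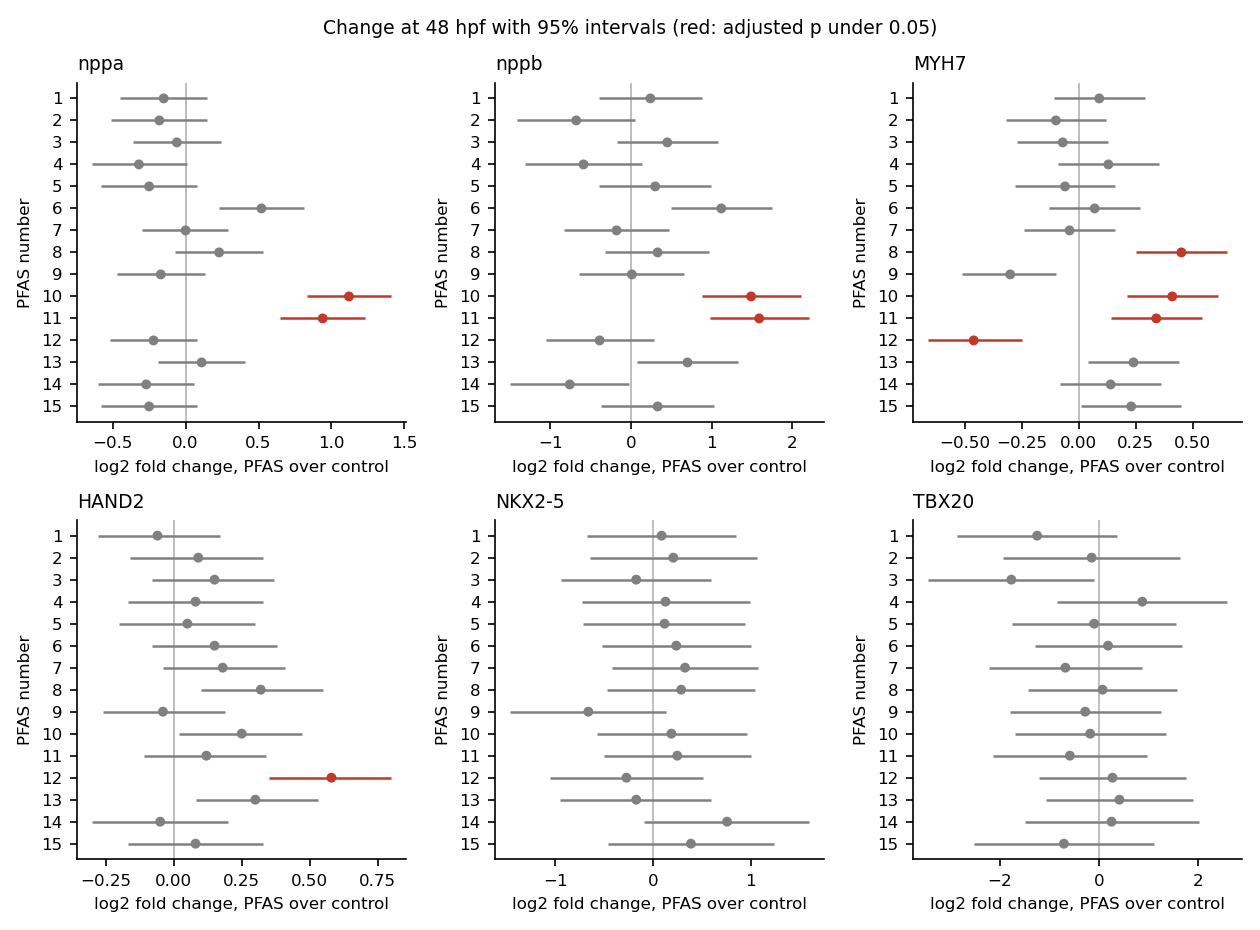
Log2 fold change at 48 hpf of 6 of the 7 members (x axis, PFAS over the controls of its own round) for each of the 15 PFAS (y axis), with 95% intervals; red marks an adjusted p under 0.05. nppa and nppb rise in PFAS 10 and 11, MYH7 rises in PFAS 8, 10 and 11 and falls in PFAS 12, and HAND2 rises in PFAS 12. gata4 is left out of the plot because it had no read in 32 of 69 libraries.

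The gene nppa, which encodes atrial natriuretic peptide, had 51.01, 35.6, 30.8 and 37.6 CPM in the 4 PFAS 10 libraries and 37.6, 30.1, 27.2 and 41.7 CPM in the 4 PFAS 11 libraries, against 16.3 to 18.6 CPM (median 18.1) in the 6 Round 1 controls. Every library of both exposures lay above every control. The log2 fold change was 1.12 ± 0.14 for PFAS 10 (a 2.17-fold rise, adjusted p = 7.7e-09) and 0.94 ± 0.15 for PFAS 11 (a 1.92-fold rise, adjusted p = 6.3e-07). Set against the control of the same collection day, nppa was higher in 4 of 4 PFAS 10 pairs, by 0.92 to 1.55 on the log2 scale, and in 4 of 4 PFAS 11 pairs, by 0.69 to 1.18. Both exposures were collected on the same days and paired with the same control libraries, so the 2 sets of pairs are not independent. The doses were 8 µM for PFAS 10 and 28 µM for PFAS 11, so the sizes stand side by side without a comparison.

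PFAS 6, the N-ethyl form of the sulfonamide in PFAS 10, was the next highest exposure for nppa. Its 4 libraries held 27.3, 25.4, 27.03 and 22.5 CPM and did not overlap the controls. The log2 fold change of 0.52 ± 0.15 did not pass (adjusted p = 0.21, range 0.023 to 0.82 over the alternatives other than leaving out a library), with only 0.105% of genes called in that exposure, and it was called only where the 2 groups were fitted alone. In PFAS 13, 1 library had 27.8 CPM of nppa and the other 3 had 15.4 to 16.8 CPM, within or near the control range. In the other 11 exposures the mean of nppa lay between 14.4 and 20.8 CPM, and the log2 fold change between -0.32 and 0.23.

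The gene nppb, which encodes the B-type peptide, was less abundant than nppa. It had 4.98, 5.98, 5.13 and 1.71 CPM in PFAS 10 and 5.53, 4.90, 4.84 and 3.88 CPM in PFAS 11, against 1.15 to 2.75 CPM (median 1.32) in the Round 1 controls. All PFAS 11 libraries lay above all controls, whereas replicate 4 of PFAS 10 lay inside the control range. The log2 fold change was 1.49 ± 0.31 for PFAS 10 (2.82-fold, adjusted p = 0.00019) and 1.59 ± 0.31 for PFAS 11 (3.02-fold, adjusted p = 5.6e-05). Within collection days nppb was higher in 4 of 4 pairs of each exposure, against the same control libraries. PFAS 6 held 3.24, 1.99, 5.54 and 3.15 CPM of nppb, a log2 fold change of 1.12 ± 0.31 that did not pass (adjusted p = 0.19). PFAS 13 averaged 2.57 ± 0.559 CPM (0.70 ± 0.32, adjusted p = 0.14). At the low end PFAS 14 averaged 0.996 ± 0.40 CPM, against 1.66 ± 0.475 CPM in the Round 2 controls (-0.76 ± 0.37, adjusted p = 1).

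**Figure D2:**
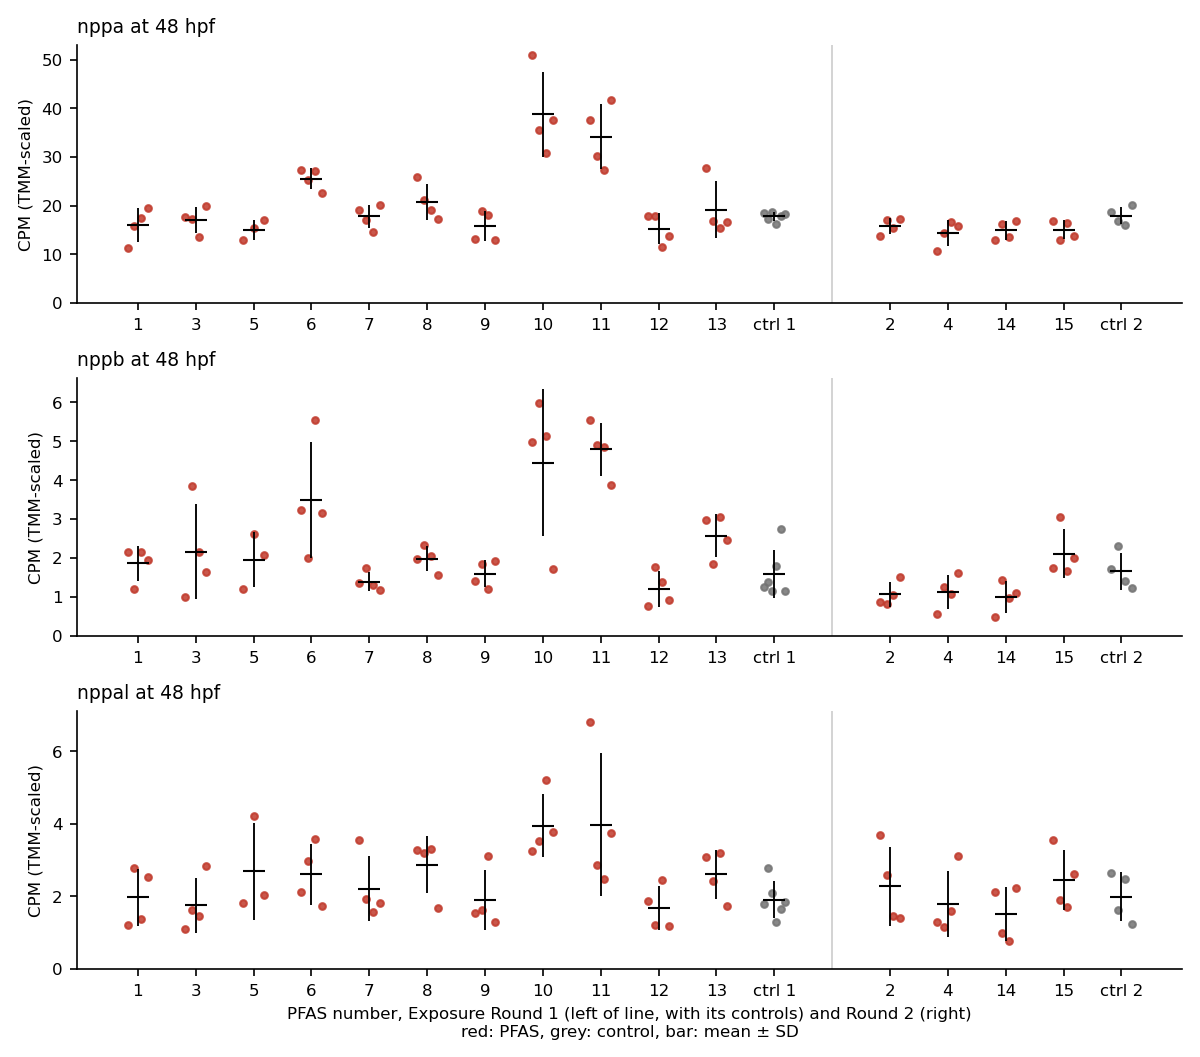
CPM of nppa, nppb and their relative nppal (y axes) in every library at 48 hpf, grouped by PFAS number (x axis), with each round's controls at its right; black bars are mean ± SD. The PFAS 10 and PFAS 11 points for nppa all lie above the control range of 16.3 to 18.6 CPM, with PFAS 6 next.

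Another gene of the group, nppal (natriuretic peptide A like), lies beside nppb and nppa in the reference annotation and was the single gene of the natriuretic peptide system list called in either exposure. That list holds the other peptides, their receptors and the proteases that cut them, and 9 of its 10 identifiers were tested. nppal had 3.25, 3.53, 5.21 and 3.78 CPM in PFAS 10 and 6.81, 2.85, 2.46 and 3.75 CPM in PFAS 11, against 1.28 to 2.78 CPM in the Round 1 controls. The PFAS 10 libraries lay apart from the controls, and 1 of the 4 PFAS 11 libraries overlapped them. The log2 fold change was 1.05 ± 0.33 in both (adjusted p = 0.021 for PFAS 10 and 0.02 for PFAS 11). Both calls were lost in either flow cell run alone (adjusted p = 0.05 to 0.057) and without replicate 4 of the controls (0.053 for PFAS 10 and 0.051 for PFAS 11). That of PFAS 10 was also lost without its replicate 3 (adjusted p = 0.1), and that of PFAS 11 without its replicate 1 (0.65, adjusted p = 0.26). Over the 69 libraries, as deviations from the controls of their round, the Pearson r was 0.66 between nppa and nppb and 0.58 between nppa and nppal, a description of libraries that share controls.

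Markers of heart muscle moved with these results in part. The summed CPM of myl7, cmlc1, tnnt2a and myh6 was 61.6 to 73.8 in PFAS 10 and 58.3 to 67.6 in PFAS 11, against 46.7 to 57.5 in the Round 1 controls. In PFAS 10 their log2 fold changes ran from 0.28 to 0.45, with myh6 called (adjusted p = 0.045), and in PFAS 11 from 0.08 to 0.45, with cmlc1 called (adjusted p = 0.048). The changes of nppa and nppb were larger than those of all 4 markers, and the part of heart muscle content in them was not tested. In PFAS 6 the 4 markers were not called, and their changes lay between -0.10 and 0.31.

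MYH7, the heavy chain identifier taken for vmhc, had 30.2, 33.1, 38.2 and 32.9 CPM in PFAS 8, 37.3, 34.02, 30.1 and 28.96 CPM in PFAS 10, and 34.95, 29.1, 24.8 and 35.5 CPM in PFAS 11, against 21.6 to 28.5 CPM (median 23.4) in the Round 1 controls. PFAS 8 and PFAS 10 lay above all controls and PFAS 11 overlapped them. The rises were modest, at 0.45 ± 0.099 for PFAS 8 (1.37-fold, adjusted p = 0.0022), 0.41 ± 0.099 for PFAS 10 (adjusted p = 0.0017) and 0.34 ± 0.099 for PFAS 11 (adjusted p = 0.011). The 4 heart muscle markers changed by 0.14 to 0.55 in PFAS 8 (median 0.41, 0 called), by 0.28 to 0.45 in PFAS 10 (median 0.35, 1 called) and by 0.08 to 0.45 in PFAS 11 (median 0.17, 1 called). Their sum was 59.7 to 71.4 CPM in PFAS 8, 61.6 to 73.8 CPM in PFAS 10 and 58.3 to 67.6 CPM in PFAS 11, against 46.7 to 57.5 CPM in the Round 1 controls. The MYH7 changes in PFAS 8, PFAS 10 and PFAS 11 each lay within the range of the markers in the same exposure. The wider cardiac sarcomere list, with 19 tested identifiers and MYH7 among them, had lower medians. They were 0.15 in PFAS 8, 0.12 in PFAS 10 and -0.03 in PFAS 11. The part of a shared change in heart RNA was not tested. The PFAS 11 call was lost without its replicate 1 (0.28, adjusted p = 0.081) or replicate 4 (0.28, adjusted p = 0.086). In PFAS 12 MYH7 went the other way, with 17.7, 19.8, 16.9 and 16.9 CPM, all below the controls (-0.46 ± 0.10, adjusted p = 0.00069). Within collection days MYH7 was higher in 4 of 4 pairs of PFAS 8, 10 and 11 and in 0 of 4 pairs of PFAS 12. Replicates 3 and 4 of PFAS 8 shared day 5 and its control library, and PFAS 10 and PFAS 11 shared all their control libraries, so these pairs are not independent. PFAS 9 averaged 19.9 ± 0.994 CPM, below all controls (-0.30 ± 0.10, adjusted p = 0.054, and 0.026 by DESeq2), and PFAS 13 was at 0.24 ± 0.10 (adjusted p = 0.088). Both came under the threshold without 1 library, PFAS 9 without control replicate 5 (adjusted p = 0.038) and PFAS 13 without control replicate 1 or its own replicate 4 (adjusted p = 0.041 and 0.036).

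MYH6 (ENSDARG00000079564) did not follow MYH7. It had 22.2, 21.5, 23.7 and 27.1 CPM in PFAS 9, against 36.2 ± 4.27 CPM in the Round 1 controls (highest 41.5), and the groups did not overlap (-0.62 ± 0.093, adjusted p = 1.3e-06). In PFAS 11, where MYH7 was raised, MYH6 averaged 29.9 ± 2.29 CPM and was lowered (-0.27 ± 0.092, adjusted p = 0.032). That call was lost under 5 of 9 alternatives other than leaving out a library, with adjusted p values between 0.024 and 0.15. It was also lost without control replicate 2, 3 or 4 (adjusted p = 0.06 to 0.1) and without PFAS 11 replicate 1, 3 or 4 (0.071 to 0.14). In PFAS 8, 10 and 12 it averaged 35.1, 34.2 and 31.2 CPM and was not called. With MYH6 in place of MYH7 the 9 calls became 7, so the account of the ventricular heavy chain rests on which identifier is vmhc.

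**Figure D3:**
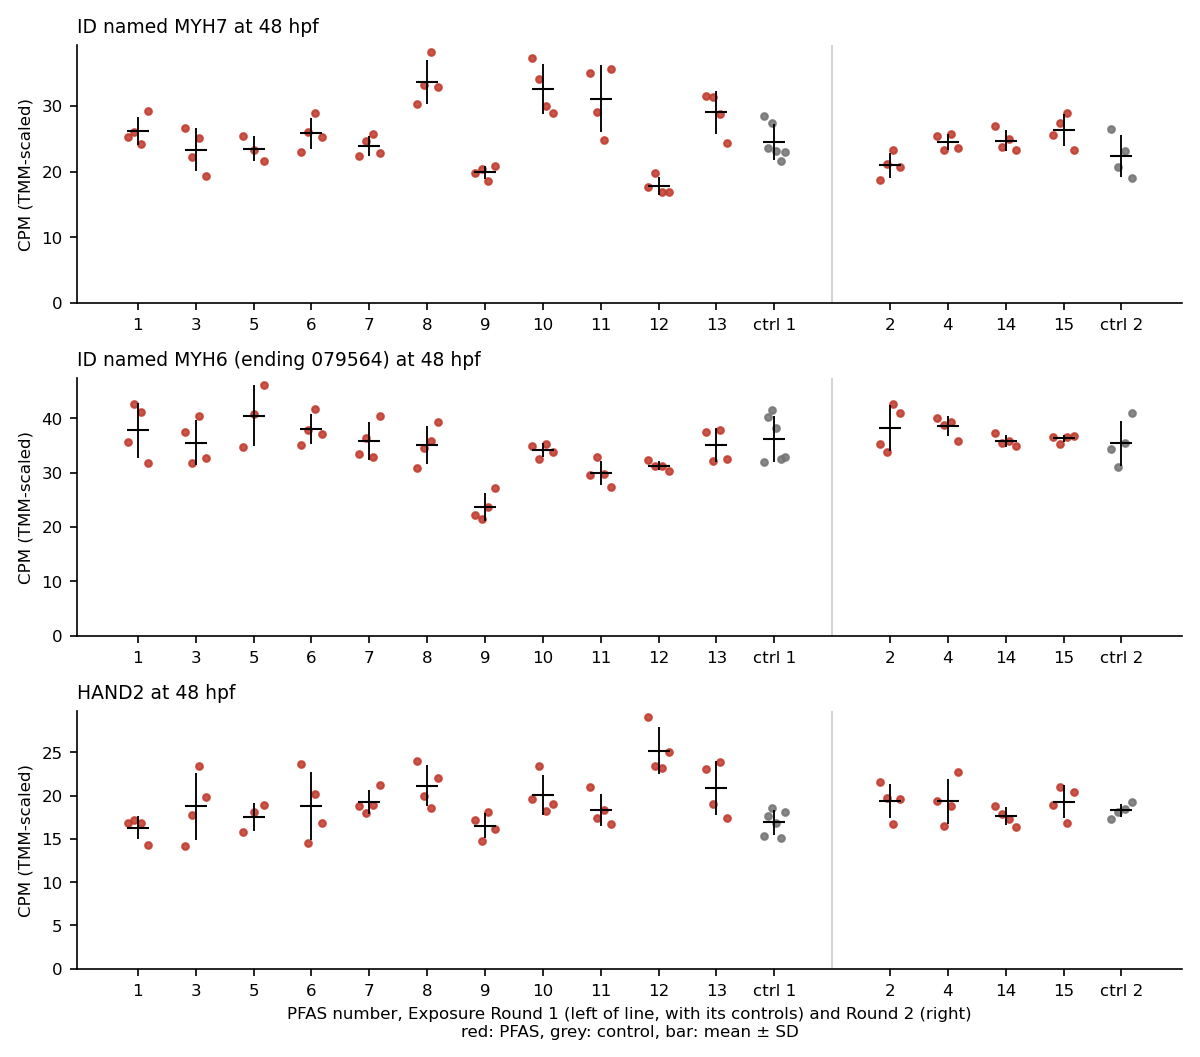
CPM of the identifiers named MYH7 and MYH6 and of HAND2 (y axes) in every library at 48 hpf by PFAS number (x axis), each round's controls at its right; black bars are mean ± SD. MYH7 is high in PFAS 8, 10 and 11 and low in PFAS 12, MYH6 is low in PFAS 9, and HAND2 is highest in PFAS 12.

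HAND2, a factor needed for the ventricle and for the pharyngeal arches and fin buds, had 29.04, 23.5, 23.2 and 25.1 CPM in PFAS 12, against 15.1 to 18.5 CPM (median 17.2) in the Round 1 controls. The groups did not overlap, and the log2 fold change was 0.58 ± 0.11 (1.49-fold, adjusted p = 8.8e-05). It was higher in 4 of 4 same-day pairs. PFAS 8, with 18.6 CPM in its lowest library, lay just above the controls without a call (0.32 ± 0.11, adjusted p = 0.10), and PFAS 13 and PFAS 10 gave 0.30 ± 0.11 (adjusted p = 0.056) and 0.25 ± 0.11 (adjusted p = 0.15). In 1 of the 2 flow cell runs alone all 3 of these were called (adjusted p = 0.026 to 0.044), and PFAS 13 also by DESeq2 (0.049). Over all 15 PFAS the change of HAND2 lay between -0.06 and 0.58 and was above 0 in 12.

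Gene lists of other tissues that use hand2 were set beside its change in PFAS 12, where 14.2% of all genes were called (6.77% higher and 7.47% lower). Of 17 tested identifiers of the pharyngeal arch and fin bud list 4 rose and 1 fell, among them DLX3 (0.72 ± 0.098, adjusted p = 2.8e-08) and BARX1 (0.62 ± 0.09, adjusted p = 1.4e-07), both patterning genes of the arches, and EDNRA, the endothelin receptor (0.46 ± 0.13, adjusted p = 0.0072). Of 9 identifiers of the sympathetic and enteric neuron list 1 rose and 0 fell, near the share over all genes. It was ascl1a, a neuronal factor (0.90 ± 0.12, adjusted p = 1.9e-08), which rose in each of PFAS 8 to 13, by 0.50 to 1.1. The arch genes were also called where HAND2 was not. BARX1 was higher in PFAS 8 (0.32 ± 0.091) and PFAS 13 (0.36 ± 0.09). DLX3 was higher in PFAS 11 (0.39 ± 0.099) and EDNRA in PFAS 10 (0.4 ± 0.13). The 4 heart muscle markers were not called in PFAS 12, with changes from -0.18 to 0.11. From which tissue the HAND2 reads came was not tested.

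The remaining 3 factors were too sparsely counted for small changes to be seen. NKX2-5, an early heart muscle factor, had 5 to 59 reads a library and no call in 15 comparisons by edgeR or DESeq2, with 0 at an unadjusted p under 0.05. Its log2 fold change lay between -0.66 in PFAS 9 and 0.76 in PFAS 14, and the PFAS 10 interval ran from -0.57 to 0.96. TBX20, the T-box factor, had 0 to 55 reads and differed widely between pools of a group. Examples were 3 to 55 reads in PFAS 6 and 3 to 30 reads in the Round 1 controls. TBX20 was not called by edgeR or DESeq2, with 1 of 15 at an unadjusted p under 0.05 (PFAS 3) and no DESeq2 adjusted p in 4. gata4, a zinc finger factor of heart and gut, had 0 reads in 32 of 69 libraries and at most 19. All 4 PFAS 3 libraries and all 4 PFAS 14 libraries were at 0, which allows up to 3 reads a library, while the controls held 0 to 5. PFAS 10 held the most, 4 to 19 reads in all 4 libraries (adjusted p = 0.28). gata4 had 0 calls by both tools, with 2 of 15 at an unadjusted p under 0.05 and no DESeq2 adjusted p in 9.

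**Figure D4:**
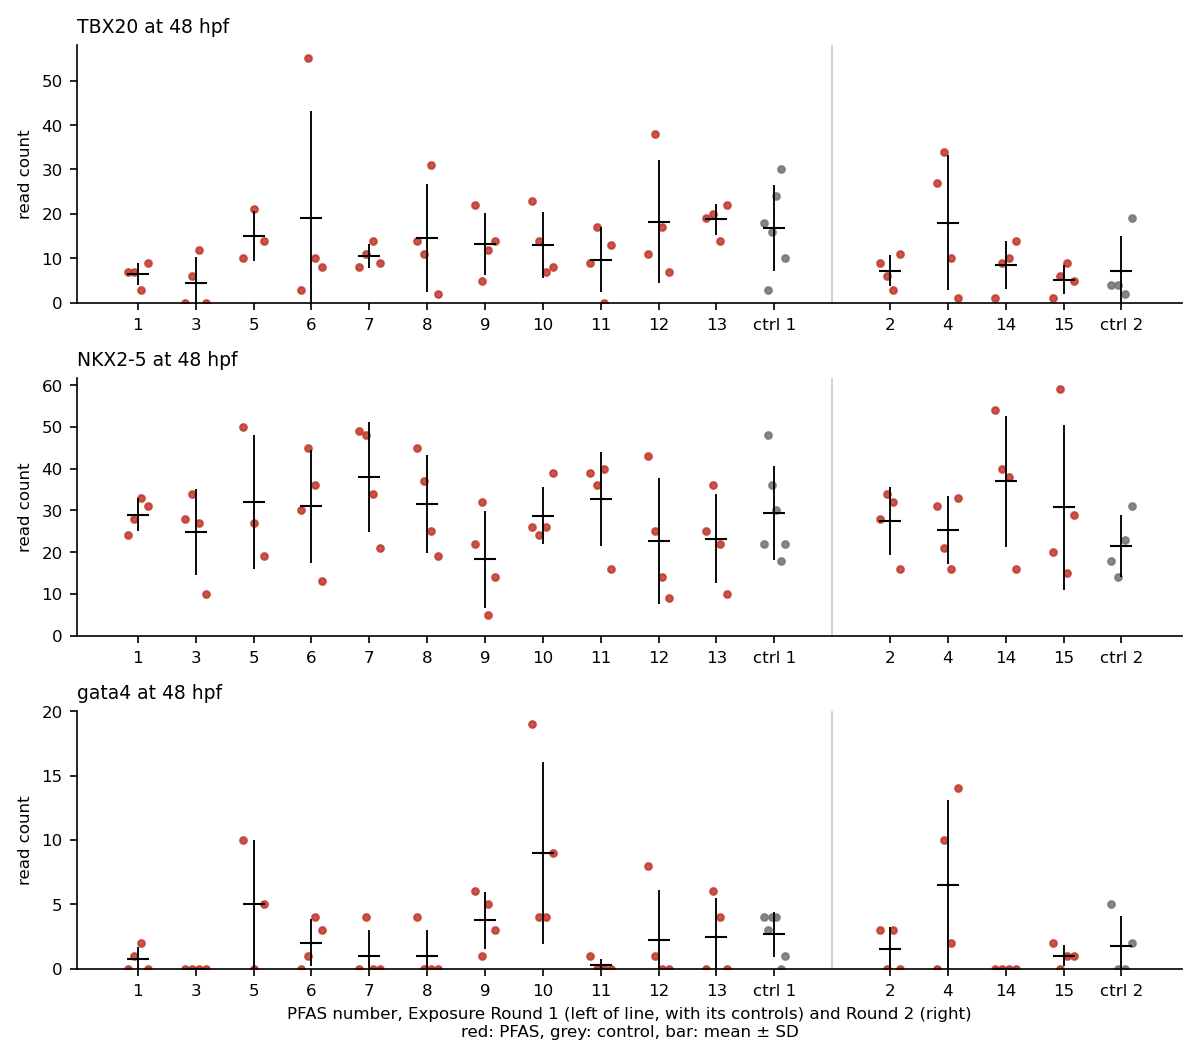
Read counts of TBX20, NKX2-5 and gata4 (y axes, not scaled for depth) in every library at 48 hpf by PFAS number (x axis), each round's controls at its right; black bars are mean ± SD. TBX20 ranges between 0 and 55 reads and gata4 between 0 and 19, with wide spread inside groups.

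The level of TBX20 depended on the table. In the NB2 table, whose rows carry NCBI gene identifiers, tbx20 averaged 8.01 on the authors' log2 scale in vehicle embryos at 48 hpf, above 80.1% of genes and above hand2 (7.84). In the table of 15 PFAS, whose rows carry Ensembl identifiers, TBX20 stood above 39.9% of genes in controls of the same age and DMSO content. Other markers also changed place, with nfatc1 of the endocardium above 74.6% in the NB2 table and above 45.5% in the PFAS table, and ckma of skeletal muscle above 24.7% in the NB2 table and above 99.9% in the PFAS table. nppa (73.1% and 82.8%), hand2 (78.3% and 82.5%) and myl7 (76.8% and 83.1%) stood near each other in both. Levels were therefore not compared between the tables.

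Around the members, the cardiac lists held genes called in both directions in some exposures and in 1 direction in others. Of all genes 3.84%, 6.9%, 14.1%, 14.1%, 14.2% and 16.2% were called in PFAS 8 to 13, in that order. The list of cardiac transcription factors had 21 identifiers, and HAND2 and TBX20 are not among them. PFAS 8 raised 3 (list median 0.05) and PFAS 9 lowered 1 (-0.01). PFAS 10 raised 4 and lowered 2 (0.12), and PFAS 11 raised 3 and lowered 3 (0.28). PFAS 12 raised 5 (0.21), and PFAS 13 raised 2 and lowered 2 (-0.04). TBX2, a repressor at the atrioventricular canal, rose by 0.37 ± 0.085 in PFAS 8 (adjusted p = 0.0042) and by 0.43 ± 0.085 in PFAS 10 (adjusted p = 8.1e-05). It also rose by 0.41 ± 0.085 in PFAS 12 (adjusted p = 0.00024) and by 0.54 ± 0.085 in PFAS 13 (adjusted p = 7.5e-07). ISL1, a factor of cardiac progenitors and of motor neurons, fell by 0.29 in PFAS 9, by 0.44 in PFAS 10, by 0.50 in PFAS 11 and by 0.56 in PFAS 13 (adjusted p = 0.0064, 5.9e-06, 3.2e-07 and 1.7e-08), and was higher in PFAS 12 (0.21 ± 0.073, adjusted p = 0.04). MEF2C, a muscle factor, fell by 0.40 in PFAS 11 (adjusted p = 0.00021) and 0.53 in PFAS 13 (adjusted p = 1.5e-06). The neuron gene LHX4 of the cranial motor neuron list, which also holds ISL1, was lower in the same 4 exposures, by 0.51 to 1.1 on the log2 scale. The part of neurons in the ISL1 change was not tested.

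The cardiac sarcomere list, with 19 tested identifiers, holds MYH7, and its counts include the MYH7 calls. PFAS 8 raised 2, PFAS 9 raised 1 and lowered 2, and PFAS 10 raised 3 and lowered 1. PFAS 11 raised 2 and lowered 2, PFAS 12 lowered 3, and PFAS 13 raised 1 and lowered 4. Beside these counts and those below, 3.84%, 6.9%, 14.1%, 14.1%, 14.2% and 16.2% of all genes were called in PFAS 8 to 13. The light chain gene myl4 fell to 2.09 CPM in PFAS 11, 3.38 CPM in PFAS 9 and 3.46 CPM in PFAS 12, against 6.81 CPM in the Round 1 controls (log2 fold changes -1.73, -1.04 and -0.97, adjusted p = 1.6e-07, 0.0021 and 0.0023). Of 13 calcium handling and conduction identifiers 2 were lower in PFAS 11, SLC8A1 (-0.91 ± 0.21, adjusted p = 0.00067), the sodium-calcium exchanger, and GJA1 (-0.42 ± 0.095, adjusted p = 0.00075), a gap junction protein. SLC8A1 was also lower in PFAS 12 (-0.68 ± 0.20, adjusted p = 0.015), and CASQ2, a calcium store protein, was higher in PFAS 13 (0.53 ± 0.14, adjusted p = 0.0039). The list of endocardium and valve, with 23 identifiers, moved both ways. PFAS 8 raised 2 and lowered 1, PFAS 9 and PFAS 13 each raised 2 and lowered 3, PFAS 10 raised 6 and lowered 1, PFAS 11 raised 2 and lowered 2 and PFAS 12 raised 3 and lowered 1, with list medians from -0.24 in PFAS 9 to 0.22 in PFAS 10. The NOTCH1 identifier with most reads rose in PFAS 8 to 13, by 0.65 to 1.01. A POSTN identifier, for a matrix protein of valves, was lower in PFAS 8, 9 and 11 (-0.83, -0.99 and -0.76, adjusted p = 0.011, 0.00082 and 0.0067). It averaged 6.19 CPM in the Round 1 controls. Another POSTN identifier averaged 508 CPM there and was higher in PFAS 12 (0.17 ± 0.053, adjusted p = 0.021). The gene klf2b, a factor that responds to blood flow, was lower in PFAS 13 (-0.66 ± 0.15, adjusted p = 0.00053). In the stretch and muscle stress list PFAS 10 raised 7 and lowered 2 of 21 identifiers, including CCN2, a matrix gene induced by strain (0.88 ± 0.14, adjusted p = 2.5e-06), and XIRP2, a muscle scaffold protein (0.48 ± 0.08, adjusted p = 5e-06). PFAS 11 raised 3 and lowered 5 of the same list, with ACTA1, an actin of skeletal muscle, at -1.43 ± 0.12 (adjusted p = 1.3e-15) and ANKRD1 at -1.15 ± 0.20 (adjusted p = 9.1e-06), and with tcap, a protein of the sarcomere's Z disc, higher at 2.52 ± 0.53 (adjusted p = 0.00019). tcap was also higher in PFAS 7 (3.5 ± 0.52, adjusted p = 4e-06) and PFAS 9 (1.97 ± 0.53, adjusted p = 0.01), where nppa and nppb were not called. Of the skeletal muscle list 10 of 20 identifiers fell in PFAS 11 and 6 of 20 in PFAS 10, and 0 rose in either. In PFAS 13, where edgeR called no member, 11 fell and 0 rose. PFAS 12 lowered 6 and raised 2, PFAS 9 lowered 4 and raised 1, and PFAS 8 lowered 2. Genes called lower made up 6.83%, 7.52% and 8.52% of all genes in PFAS 10, 11 and 13.

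The list of erythrocyte genes and that of smooth muscle and outflow tract were set beside the exposures in which a heavy chain or peptide gene moved. Of all genes 3.84%, 6.9%, 14.1%, 14.1% and 14.2% were called in PFAS 8 to 12, in that order. In PFAS 9, where MYH6 was lowered and MYH7 stood near the threshold, 5 of 8 erythrocyte identifiers fell (list median -0.75), led by hbae3, an embryonic globin (-1.0 ± 0.18, adjusted p = 3e-05), and 2 of 7 of smooth muscle fell (list median -0.55). PFAS 12, in which MYH7 fell, lowered 2 of 8 erythrocyte identifiers and 4 of 7 of smooth muscle, led by acta2 (-1.96 ± 0.26, adjusted p = 2.3e-08). The gene acta2 was also lower in PFAS 11 (-1.18 ± 0.25, adjusted p = 0.00018), where MYH7 was called higher. PFAS 8 raised 1 of 8 erythrocyte identifiers and lowered 1 of 7 of smooth muscle, and PFAS 10 and PFAS 11 lowered 3 and 1 of 7 of smooth muscle. The erythrocyte list had medians of -0.06 in PFAS 10 and 0.20 in PFAS 11. Of 7 epicardial identifiers PFAS 10, 11 and 12 lowered 1 each. Foregut and liver endoderm had 1 of 13 raised in PFAS 10, GATA6 (0.79 ± 0.20, adjusted p = 0.0026), a relative of gata4.

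At matched doses 7 pairs of PFAS could be compared, 3 of them, those with PFAS 12, added after the data were seen. In the first 4 pairs edgeR and DESeq2 called 0 of the 28 member tests (0% of all genes in each pair), with 5 at an unadjusted p under 0.05. At 100 µM nppa held 15.0 ± 2.05 CPM in PFAS 5, a sulfonic acid, against 25.5 ± 2.19 CPM in PFAS 6, an N-ethyl sulfonamide, and the groups did not overlap. The log2 difference of PFAS 5 minus PFAS 6 was -0.77 with a 95% interval of -1.12 to -0.41 (adjusted p over all genes = 0.63). For PFAS 1, a chlorinated carboxylic acid with 11.4 to 19.6 CPM, minus PFAS 6 it was -0.67 (interval -1.0 to -0.35, adjusted p = 0.28). Between PFAS 1 and PFAS 5 the nppa difference was 0.09 with an interval of -0.26 to 0.45. The diacrylates PFAS 14 and PFAS 15 at 20 µM differ in chain length by a CF2 unit. They gave 14.9 ± 1.94 and 15.0 ± 1.95 CPM of nppa (difference -0.02, interval -0.35 to 0.31) and 0.996 ± 0.40 and 2.11 ± 0.636 CPM of nppb, which did not overlap (difference -1.09, interval -1.83 to -0.36, adjusted p = 1). For MYH7, MYH6 and HAND2 these 4 pairs gave differences between -0.20 and 0.16.

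PFAS 12, a fluorinated pentane with hydroxyl groups, shared the dose of 100 µM with PFAS 1, PFAS 5 and PFAS 6, and edgeR and DESeq2 each called 8 of the 21 member tests. MYH7 averaged 17.8 ± 1.36 CPM in PFAS 12, against 26.2 ± 2.12 CPM in PFAS 1, 23.5 ± 1.91 CPM in PFAS 5 and 25.8 ± 2.43 CPM in PFAS 6, and PFAS 12 lay below each without overlap. The log2 differences were -0.55 (interval -0.77 to -0.33, adjusted p = 0.00022), -0.40 (-0.63 to -0.16, adjusted p = 0.021) and -0.53 (-0.75 to -0.31, adjusted p = 0.00046). For MYH6 they were -0.27 (adjusted p = 0.063), -0.37 (adjusted p = 0.014) and -0.28 (adjusted p = 0.065), so only that against PFAS 5 was called. It was lost without PFAS 5 replicate 3 (adjusted p = 0.052) or replicate 4 (0.19), and in 1 flow cell run alone (0.093). The heavy chain calls in these pairs thus also rest on which identifier is vmhc. HAND2 averaged 25.2 ± 2.69 CPM in PFAS 12, against 16.3 ± 1.31 CPM in PFAS 1, 17.6 ± 1.62 CPM in PFAS 5 and 18.8 ± 3.96 CPM in PFAS 6, and overlapped PFAS 6. The log2 differences were 0.63 (interval 0.38 to 0.88, adjusted p = 0.00017), 0.52 (0.25 to 0.79, adjusted p = 0.0054) and 0.43 (0.18 to 0.68, adjusted p = 0.016). In these pairs 11.3%, 10.1% and 9.38% of all genes were called, and the PFAS 12 libraries are those whose MYH7 and HAND2 were called against controls. The call for MYH7 against PFAS 5 was lost without PFAS 5 replicate 2 (adjusted p = 0.13) or replicate 3 (0.056) or PFAS 12 replicate 3 (0.056) or replicate 4 (0.053). It was also lost in either flow cell run alone (0.099 and 0.054) and where the 2 groups were fitted alone (0.059). The call for HAND2 against PFAS 6 was lost without PFAS 6 replicate 2 (0.13) or replicate 4 (0.075) or PFAS 12 replicate 1 (0.11), and that against PFAS 5 without PFAS 5 replicate 2 (0.058). The HAND2 call against PFAS 6 was also lost in 1 flow cell run alone (0.12) and where the 2 groups were fitted alone (0.073).

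The peptide genes differed between PFAS 12 and PFAS 6. nppa averaged 15.2 ± 3.16 CPM in PFAS 12 and 25.5 ± 2.19 CPM in PFAS 6 (-0.74, interval -1.07 to -0.41, adjusted p = 0.00096), and nppb 1.21 ± 0.459 CPM in PFAS 12 and 3.48 ± 1.48 CPM in PFAS 6 (-1.51, interval -2.23 to -0.79, adjusted p = 0.0023), both without overlap. The nppb call was lost in 1 flow cell run alone (-1.32, adjusted p = 0.057). Against PFAS 1 and PFAS 5 the nppa differences were -0.07 (interval -0.40 to 0.26) and 0.03 (-0.33 to 0.38) and were not called.

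In the NB2 time course values are the authors' normalised expression on a log2 scale, with 3.59 the lowest value, shared by many genes, and limma with a mean trend was used on 24853 genes. NB2 at 73 µM changed no member at 48 or 72 hpf and 3 of 7 at 96 hpf. In all, 0% of genes were called at 48 hpf, 0.728% at 72 hpf (0.479% higher and 0.249% lower) and 18.4% at 96 hpf (8.22% higher and 10.2% lower), and no member had an unadjusted p under 0.05 at the 2 earlier ages. At 48 hpf PFAS 2, which is NB2 at 30 µM in the other table, likewise had no member called. A fold on this scale understates the change of low genes.

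At 96 hpf nppa had 7.89, 7.79, 7.98, 8.08 and 8.04 in NB2 embryos, against 6.81, 7.24, 7.24, 7.18 and 7.15 in vehicle embryos. The groups lay apart by more than the spread of either, and the difference was 0.83 ± 0.15 (adjusted p = 4.2e-05). nppb had 6.57, 5.30, 6.30, 6.14 and 5.49 in NB2 embryos, against 5.18, 4.35, 4.56, 5.06 and 5.16 in vehicle embryos, again without overlap (1.1 ± 0.24, adjusted p = 0.00076). nppal had 5.27 to 5.89 in NB2 embryos and 3.59 to 4.97 in vehicle embryos (1.31 ± 0.23, adjusted p = 5.8e-05), and 1 vehicle column stood at the lowest value of the table. So all 3 neighbouring peptide genes were higher in NB2 embryos at 96 hpf.

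At 72 hpf the peptide genes had not separated. At that age nppa averaged 7.24 ± 0.40 in NB2 and 7.23 ± 0.31 in vehicle embryos, and nppb 4.91 ± 0.48 in NB2 and 4.81 ± 0.39 in vehicle embryos. The NB2 effect at 96 hpf minus that at 72 hpf was 0.83 ± 0.21 for nppa (adjusted p = 0.0061), 1.00 ± 0.34 for nppb (adjusted p = 0.048) and 1.08 ± 0.33 for nppal (adjusted p = 0.027), where 12.2% of all genes were called. The same comparison with 48 hpf gave 0.66 ± 0.22 for nppa (adjusted p = 0.062), 1.17 ± 0.36 for nppb (adjusted p = 0.038) and 1.56 ± 0.35 for nppal (adjusted p = 0.0029), with 7.25% of genes called. Both calls for nppb were lost without the mean trend (adjusted p = 0.068 and 0.058) and without any of many single columns, up to an adjusted p of 0.11 for 72 hpf and 0.091 for 48 hpf. The values stayed between 0.85 and 1.02 and between 1.02 and 1.18 where the call was lost. The 96 minus 72 hpf call for nppal was lost without vehicle column A or B at 72 hpf (0.93 and 0.96, adjusted p = 0.064 and 0.062) or vehicle column C or D at 96 hpf (0.98 and 0.88, adjusted p = 0.061 and 0.07). Between 48 and 72 hpf no member changed in its NB2 effect, with 0 at an unadjusted p under 0.05, and 0.197% of genes were called.

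**Figure D5:**
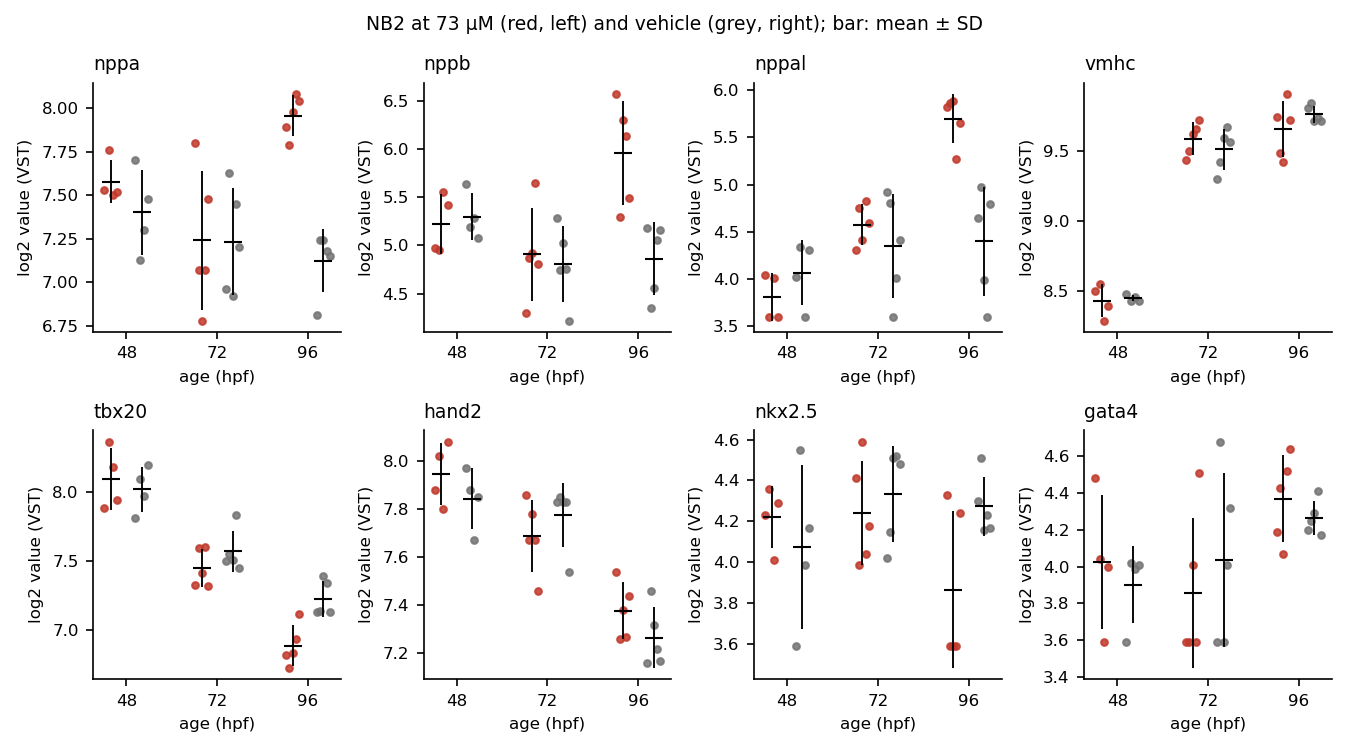
Log2 value (y axes) of the 7 members and nppal in each column of the NB2 time course at 48, 72 and 96 hpf (x axis); NB2 at 73 µM in red, left of vehicle in grey, black bars are mean ± SD. nppa, nppb and nppal separate at 96 hpf only, and vmhc climbs with age in both groups.

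The other call at 96 hpf was tbx20, at 6.82, 6.73, 6.84, 6.94 and 7.12 in NB2 embryos, against 7.13, 7.14, 7.39, 7.34 and 7.13 in vehicle embryos. The groups nearly touched, and the fall of 0.34 ± 0.11 (adjusted p = 0.023) was lost without vehicle column C (-0.29, adjusted p = 0.076) or D (0.064), without NB2 column A (0.053) or B (0.066), and where the 2 groups were fitted alone (0.05). nkx2.5 averaged 3.87 ± 0.38 in NB2 embryos, with 3 of 5 columns at the lowest value, and 4.27 ± 0.15 in vehicle embryos (-0.41 ± 0.18, adjusted p = 0.12). vmhc (-0.11 ± 0.081), hand2 (0.11 ± 0.097) and gata4 (0.11 ± 0.20) were not called, nor was myh7l (-0.05 ± 0.097). The atrial heavy chain myh6 was called, at 7.28 ± 0.27 in NB2 embryos and 6.84 ± 0.21 in vehicle embryos (0.44 ± 0.12, adjusted p = 0.01), while the other heart muscle markers myl7, cmlc1 and tnnt2a differed by 0.04, 0.21 and -0.05 and were not called.

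The counts of the gene lists stand beside 18.4% of all genes called at 96 hpf (8.22% higher and 10.2% lower) and 0.728% at 72 hpf. Within the natriuretic peptide list 4 of 10 genes rose in NB2 embryos at 96 hpf and 0 fell. Among them were nppc, the C-type peptide (0.85 ± 0.18, adjusted p = 0.00045), and npr1a, a receptor for the A and B types (0.31 ± 0.089, adjusted p = 0.012). Of 16 genes of the stretch and muscle stress list 8 rose and 1 fell, with a median of 0.46 against -0.02 over all genes. tcap rose by 3.29 ± 0.34 (adjusted p = 1.3e-09), ccn2a by 1.01 ± 0.14 (adjusted p = 4.5e-07) and flnca, a filamin of muscle, by 1.00 ± 0.18 (adjusted p = 5.3e-05). Of this list 2 had already risen at 72 hpf, ankrd1b (0.69 ± 0.15, adjusted p = 0.018) and tcap (1.34 ± 0.34, adjusted p = 0.046), when nppa and nppb had not. Of 17 calcium handling and conduction genes 3 rose and 1 fell. The calcium pump genes atp2a2a (0.97 ± 0.12, adjusted p = 4.5e-08) and atp2a2b (0.48 ± 0.071, adjusted p = 3.1e-06) rose at 96 hpf, and slc8a1b, a sodium-calcium exchanger, fell (-0.34 ± 0.078, adjusted p = 0.0013). Of 19 cardiac sarcomere genes 1 rose and 4 fell, among them the titin genes ttn.1 (-0.42 ± 0.073, adjusted p = 3.8e-05) and ttn.2 (-0.33 ± 0.079, adjusted p = 0.0023), which skeletal muscle shares, and mybpc3, a myosin-binding protein of the heart (-0.36 ± 0.093, adjusted p = 0.004). Of 19 cardiac transcription factors 3 fell and 0 rose, led by mef2cb (-0.56 ± 0.06, adjusted p = 4.6e-09), and of 18 endocardial and valve genes 4 fell and 1 rose, led by postnb (-0.73 ± 0.07, adjusted p = 2.1e-10). Of 5 epicardial genes 2 fell, tbx18 (-0.45 ± 0.13, adjusted p = 0.014) and tgm2b (-0.41 ± 0.13, adjusted p = 0.022). Of 18 skeletal muscle genes 2 rose and 4 fell.

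Vehicle embryos showed how the members move with age alone. vmhc averaged 8.45 ± 0.02 at 48 hpf, 9.51 ± 0.15 at 72 hpf and 9.76 ± 0.06 at 96 hpf, a rise of 1.06 ± 0.086 up to 72 hpf (adjusted p = 1e-12) and of 0.25 ± 0.081 after it (adjusted p = 0.026). tbx20 fell at each step, by 0.45 ± 0.11 and by 0.34 ± 0.11 (adjusted p = 0.0026 and 0.022), and hand2 fell by 0.51 ± 0.097 between 72 and 96 hpf (adjusted p = 0.00013). The later steps of vmhc and tbx20 were lost in part without 1 column (vmhc up to 0.11, tbx20 up to 0.098 without vehicle column D at 72 hpf). Of the 7 members 2, 3 and 3 were called for 72 against 48, 96 against 72 and 96 against 48 hpf, where 25.6%, 17.6% and 38.9% of all genes were. nppa and nppb were not called at any step, with changes of 96 minus 48 hpf of -0.28 ± 0.16 and -0.44 ± 0.25 (adjusted p = 0.17 and 0.19). The fall of tbx20 in NB2 embryos at 96 hpf had the direction of its change with age. vmhc and hand2 also changed with age (96 minus 48 hpf, 1.31 and -0.58) but were not called in NB2 embryos at 96 hpf. The relation of the NB2 changes to age was not tested.

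Over the 69 libraries of the 15 PFAS the genes whose pattern was most like nppa were malat1 (Pearson r = 0.78), SLC4A2 (0.74) and BRI3 (0.74). For nppb they were BTF3 (0.68), SLC25A5 (0.68) and DUSP1 (0.67), for MYH7 ENO3 (0.65), APOD (0.64) and CREBBP (0.63), and for HAND2 CXCL12 (0.62), NAT8L (0.60) and en1b (0.59). The closest genes to TBX20, NKX2-5 and gata4 reached 0.44, 0.49 and 0.51 (cyp2p10, FAT1 and ALDOC), which in counts this sparse is no finding. These values describe libraries that share controls and depth. Only genes with a mean log2 CPM over 1 could be listed, which left out low members such as TBX20, NKX2-5 and gata4. The lists therefore do not show whether members go together. Between nppa and nppb the r was 0.66, beside 0.67 for the third gene listed for nppb.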

How the data were processed

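The 70 libraries of the table of 15 PFAS and the 28 columns of the NB2 table (of 30 samples) were analysed. The deposited counts were made by the authors from Lexogen 3′ mRNA libraries with STAR on GRCz11 and HTSeq on the stated strand; versions are not given in the sources used here. Low genes had been removed by the authors, which left 27904 of 32520. The 2 flow cell runs of a library were added up. The NB2 table holds log2-scale values that the authors had normalised with DESeq2 before they were deposited. The transform is not stated for this table, which has 1 shared lowest value and unknown depth. The authors' fold changes, p-values and enrichments were deposited too and were not used.

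Counts were fitted with edgeR 4.0.16 (R 4.3.3) over 69 libraries in 17 groups, with TMM scaling, filterByExpr (minimum count 10, total 15) and the quasi-likelihood F test. NB2 values were fitted with limma 3.58.1 on genes that rose above the lowest value in 4 or more columns. DESeq2 1.42.0 served as an alternative. The functions were tested on simulated data. Tables were handled in Python 3.11.15 with pandas 2.3.3.

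Round 1 libraries share collection days according to the study's sampling sheet. Deviations from group means correlated by 0.036 on average for libraries of the same day and by -0.008 for those of other days, over 12808 genes. Adding the day (in Round 2 the replicate number) as a block changed no call of a member. Labels call the controls untreated and describe 1% DMSO.

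The 7 members and the 14 other gene lists were chosen with earlier results of these data known. Named are the members, at most 3 called genes of smallest p per list in exposures with 100 or more called genes, and for each member the 3 genes with mean log2 CPM over 1 and highest Pearson r; MYH6 and nppal were followed as relatives of members, and the marker genes were fixed by cell type. Symbols came from the reference tables, whose genome assembly differs from GRCz11, so no coordinates or sequences are printed. Intervals are 95% intervals of the fits. The other 2 NB2 samples are not analysed here, and column letters were not tied to replicate numbers.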

Additional observations from a re-analysis of the deposited data

Results flagged for a closer look

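Flags for a library that stands apart in its group of 4 to 10 are raised by chance in about 1 group in 20, which comes to 7.2 of the 144 gene-and-group sets in the table of 15 PFAS and 3.0 of the 60 in the NB2 table. There were 10 in the table of 15 PFAS and 6 in the NB2 table. In the table of 15 PFAS nppb in replicate 4 of PFAS 10, where nppb was called, stood low, at 1.71 CPM. For nppa, replicate 1 of PFAS 13 stood high, at 27.8 CPM, in an exposure without a call of nppa (edgeR adjusted p = 0.73). Also apart were TBX20 in Control-B replicate 4 (1.29 CPM), NKX2-5 in PFAS 1 replicate 1 (0.974 CPM), HAND2 in PFAS 1 replicate 4 (14.3 CPM), nppal in PFAS 8 replicate 4 (1.68 CPM), and gata4 in PFAS 11 replicate 1 (0.0426 CPM), PFAS 7 replicate 2 (0.142 CPM), PFAS 8 replicate 1 (0.152 CPM) and PFAS 9 replicate 2 (0.0386 CPM). In the NB2 table they were nppa in NB2 column B at 48 hpf (7.76) and vehicle column A at 96 hpf (6.81), tbx20 in vehicle column D at 72 hpf (7.83), gata4 in vehicle column A at 48 hpf (3.59), hand2 in vehicle column E at 72 hpf (7.54) and myh7l in NB2 column C at 96 hpf (7.82).

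The NB2 effect differed between ages by its own test for the peptide genes: 96 minus 72 hpf by 0.83 for nppa, 1.0 for nppb and 1.08 for nppal, and 96 minus 48 hpf by 1.17 for nppb and 1.56 for nppal.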

How the results depend on the processing

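The 9 calls among the 15 PFAS stayed between 7 and 12 under 10 alternatives, the 7 with vmhc taken at the MYH6 identifier (an alternative chosen after seeing the data) and the 12 in 1 flow cell run alone, and between 8 and 11 without 1 library. The 0 calls in the first 4 pairs at matched doses stayed 0 under the settings run, and the 8 calls in the 3 pairs with PFAS 12, which were added after seeing the data, lay between 6 and 8 under 10 alternatives and between 6 and 8 without 1 library. Calls for NB2 against vehicle numbered 3, or 2 where only the groups compared were fitted, and 2 to 3 without 1 column. Calls between ages numbered 8, with 7 to 8 under alternatives and 6 to 8 without 1 column. The 3 calls for a change of the NB2 effect between times became 1 without the mean trend and 1 without the filter on low values, and 1 to 4 without 1 column; those lost were the nppb calls, and the cause was not tested. The replicate block left 9 calls among the PFAS, 8 in the pairs with PFAS 12, 3 for NB2, 8 between ages and 3 for the change of the NB2 effect. With the NB2 column letter as block, the 96 minus 48 hpf change of nppb fell out (adjusted p = 0.052) and that of nppa came in (adjusted p = 0.041); columns of the same letter did not deviate together (mean r 0.004, against -0.001 for other letters). Called values did not change sign under any setting run. Leave-one-out fits kept the genes and dispersion trend of the whole set. Depth limits TBX20, NKX2-5 and gata4 in the table of 15 PFAS; intervals cover the spread of pools within groups only.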
